A study of Mus musculus with 3 samples.

Results

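The neurons of unclear sub-type are the spinal neurons that the study could not place in any named sub-type. They were taken from the deposited annotation, as nuclei entered as neurons whose refined sub-type entry was unclear. There were 1016 such nuclei among 8800 neurons and 14662 nuclei in all, or 6.93% of nuclei and 10.7% of the unique molecular identifiers (UMIs, each standing for a captured RNA molecule). Motor neurons were annotated apart and are left out of the 8800 and of every share of neurons. They are compared here with 7757 neurons of 8 named sub-types, which the study called dorsal, mid or ventral excitatory and inhibitory (DE, DI, ME, MI, VE, VI), ventral cholinergic (VC) and ventral mixed (VM). Nuclear RNA was sequenced from the lumbar spinal cord of 12 mice at 90 days of age, 3 females and 3 males of each genotype. The SOD1G93A mice carried the high-copy transgene of B6.Cg-Tg(SOD1G93A)1Gur/J, and the WT mice were C57BL/6J littermates. The transgene holds mutant human SOD1 under its own promoter and is active in most cell types, so a change in these neurons can start in any cell. Each of 3 pools, named A, B and C, joined nuclei of 4 hashtagged mice, a female and a male per genotype, in a single droplet run. Each mouse entered 1 pool only, and a mouse is named here by its sex, genotype and pool.

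Spinal interneurons are divided by position, by birth in a dorsal or ventral progenitor domain, and by transmitter. Excitatory cells load glutamate into vesicles with a vesicular glutamate transporter, and inhibitory cells make GABA, take up glycine, or do both. Dorsal cells mostly process sensory input, and ventral cells mostly shape motor output. Single nuclei hold little of some of these transcripts, so a nucleus can lack every defining transmitter gene in the counts.

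Each mouse gave 27 to 160 unclear neurons and 759322 to 3360577 UMIs. In 3 mice a single nucleus held a large part of that sum, at 28.5% in the female SOD1G93A mouse of pool A, 27.1% in the male WT mouse of pool C and 18.05% in the female SOD1G93A mouse of pool C. Nuclei above 60000 UMIs were 4.72% of unclear neurons and held 25.8% of their UMIs, against 1.02% of named neurons and 5.42% of UMIs. Between pools, 15 barcodes recurred, which touched 2 unclear neurons. Sod1, superoxide dismutase, was counted at 24.4 to 57.2 CPM (counts scaled to the same total in every mouse) in the unclear neurons of WT mice, with a median of 27.3, and at 60.8 to 234 CPM in those of SOD1G93A mice, with a median of 82.6. The genotype groups did not overlap, although the human transcript can be counted as the mouse gene and the WT mice of pool A, at 57.2 and 44.4 CPM, were above the other WT mice.

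Neuronal markers were present at levels above those of oligodendrocytes. Rbfox3, the splicing factor NeuN, was at 306 CPM in unclear and 364 CPM in named neurons, and lower in 12 of 12 mice. Grin1, the obligatory NMDA receptor subunit, was at 335 and 330 CPM. With each nucleus thinned to 2000 UMIs, Rbfox3 was seen in 45.8% of unclear neurons, 48.2% of named neurons and 5.91% of oligodendrocytes, and Grin1 in 49.7%, 45.5% and 7.51%. Of 7 neuronal markers, 3 were lower in every mouse, namely Rbfox3, Camk2a and Syt1, and none was higher in every mouse. The summed share of the 7 markers was below that of named neurons in 12 of 12 mice, with a median ratio of 0.929 and a lowest ratio of 0.807, and its mean was 1.22% of UMIs in the unclear nuclei of cluster 6, against 1.56% in named neurons.

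Taken as a whole, the unclear neurons were not shallow. Their median was 15451.5 UMIs and 4283.5 genes per nucleus, against 12653 UMIs and 3696 genes in named neurons. Per mouse the median ranged from 8431 to 20814 UMIs, and it was above that of the named neurons in 10 of 12 mice, by a mean of 3160 ± 3050 UMIs (SD, n = 12, exact sign-flip permutation test, two-sided, p = 0.00684, adjusted p = 0.0103 over 3 measures). The exceptions were the female WT mouse of pool C and the male SOD1G93A mouse of pool B. On the mean of log10 UMIs the difference was 0.0292 and did not pass (exact permutation test, p = 0.271). Both tails were wide, with 5.02% of unclear and 0.53% of named neurons below 2000 UMIs. The 249 unclear nuclei of cluster 6 had a median of 8900 UMIs, below that of named neurons. Named sub-types differed in depth. The medians of DE (10188 UMIs), ME (11728.5), DI (11763) and MI (12782) were below that of all unclear neurons. Those of VC (16800.5), VM (17152.5), VE (19812) and VI (23031) were above it, so the excess held against the named neurons together and not against the ventral sub-types. Genes per nucleus after thinning to 2000 UMIs were 1115 to 1197 in unclear and 1085.5 to 1146 in named neurons, higher in 12 of 12 mice by 45.2 ± 17.0 genes (SD, n = 12, exact permutation test, p = 0.000488, adjusted p = 0.00146, the smallest p that 12 mice can give being 0.000488). The mitochondrial share did not separate them (exact permutation test, p = 0.817). None of the 3 measures differed by genotype past the test, with exact permutation p-values of 0.844 for UMIs, 0.125 for thinned genes and 0.312 for the mitochondrial share over 6 pairs of mice of the same sex and pool.

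The label gathered several kinds of nuclei. Unclear neurons fell in 28 clusters of the deposited clustering, and 11 clusters with at least 20 of them held 948, or 93.3%. Cluster 6 held 249 (24.5%), cluster 11 held 179, cluster 4 held 145, and clusters 40 and 22 held 98 each. Per the study's methods, marker genes at first defined cluster 6 poorly, its nuclei lay among many other clusters, and it was sub-clustered again. Of its 593 nuclei, 439 were annotated as neurons, 176 of them with a named sub-type. Cluster 40 was nearly all unclear, with 98 of its 101 nuclei, whereas the 32 in cluster 0 were 4.00% of that cluster. In the study's mapping to a reference atlas, 836 unclear neurons (82.3%) had received only the general entry for neurons, compared with 1.80% of named neurons. Their median mapping score was 0.449 against 0.774. The study took its neuron sub-types from this mapping, so both contrasts follow in part from the label and are given as a description. The named VI and VM neurons had median scores of 0.433 and 0.393, so a low score was not found in the unclear neurons alone. The specific entries given to most unclear neurons were DE_14 (57 nuclei), VE_4 (51) and DE_15 (18).

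Inhibitory transmitter genes were seen in more unclear than named neurons, and the main glutamate transporter in fewer. Because the label rests on the genes of these nuclei, levels against named neurons are given as a description, with no test. In nuclei thinned to 2000 UMIs, Slc6a5, the neuronal glycine transporter, was seen in 16.4% of unclear and 8.67% of named neurons, Gad2 in 11.8% and 7.40%, and Gad1 in 8.60% and 6.05%. Gad1 and Gad2 make GABA. Slc32a1, which loads GABA and glycine into vesicles, was seen in 4.87% and 4.54%. Slc17a6, the vesicular glutamate transporter of most spinal excitatory neurons, was seen in 7.56% of unclear and 13.8% of named neurons. The same shares in oligodendrocytes, which should lack these genes, were 4.17% for Slc6a5, 2.38% for Gad2, 2.52% for Gad1, 3.05% for Slc32a1 and 3.93% for Slc17a6. Median depths before thinning were 15451.5 UMIs in unclear neurons and 5786 in oligodendrocytes.

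Rare transmitters were near the limit of detection. Chat, which makes acetylcholine, was seen in 0.725% of unclear and 0.726% of named neurons, with 0.339% of oligodendrocytes, and Slc5a7, the choline transporter, in 1.35%, 1.54% and 2.42%. No thinned unclear nucleus held a UMI of Slc17a7, Slc17a8, Slc18a3 or Slc6a4, the other vesicular glutamate transporters, the vesicular acetylcholine transporter and the serotonin transporter. With 0 of 965 nuclei, the exact 95% interval allows up to 0.382% of nuclei with a UMI at this depth, for counting error only, which sets no limit on nuclei that express the gene. Without thinning, Slc17a8 was seen in 9, Slc17a7 in 2 and Slc6a4 in 1 of 1016 unclear neurons. Slc18a3 had no UMI in any unclear, named or oligodendrocyte nucleus, so nothing can be read from its 0. Th and Tph2, which start dopamine and serotonin synthesis, were each seen in 0.104%. Ddc, the next enzyme of both pathways, was seen in 0.622%, and Slc18a2, which loads monoamines into vesicles, in 2.07%.

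At 8000 UMIs per nucleus, which 792 unclear neurons reached, 59.0% held a GABA or glycine gene and no glutamate transporter gene, 15.3% the reverse, 8.71% both and 17.0% neither. The named neurons were at 38.2%, 29.8%, 8.04% and 23.9%. The clusters differed. The inhibitory class held 95% of the unclear nuclei in cluster 44, 91.7% in cluster 53, 87.9% in cluster 11, 85.3% in cluster 54, 80.6% in cluster 21, 76.6% in cluster 22 and 71.4% in cluster 4. The glutamate class led in cluster 0 at 66.7%, cluster 18 at 60% and cluster 40 at 52.3%. Cluster 6 was mixed, with 39.4% inhibitory, 15.2% glutamate and 19.7% both. All these class shares are of nuclei pooled over mice. Oligodendrocytes at the same depth held a GABA or glycine gene alone in 26.8% and both classes in 3.77%.

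**Figure D1:**
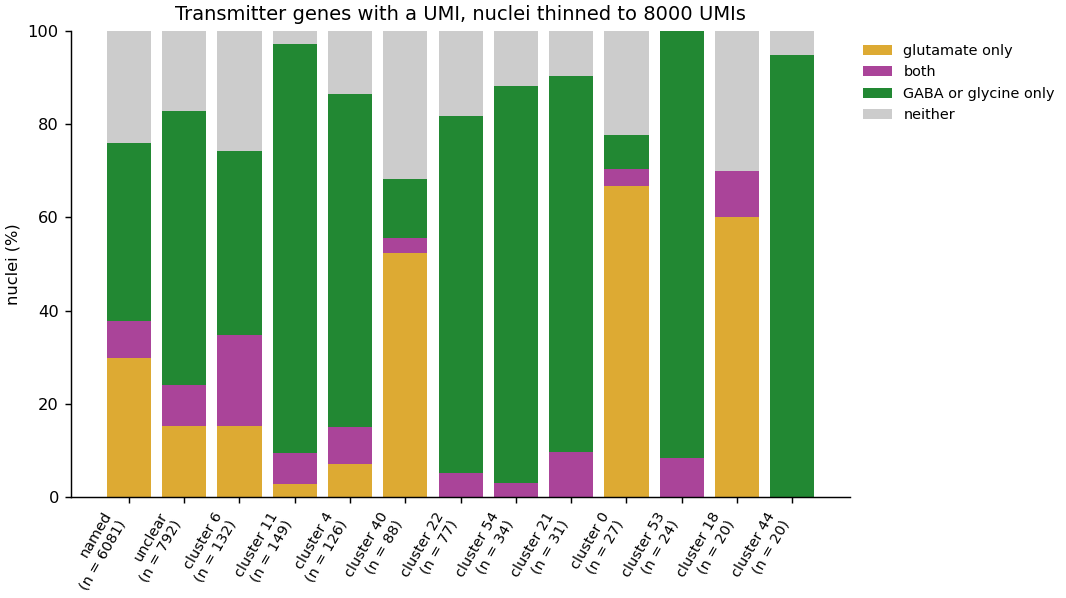
Stacked bars give the percent of nuclei, thinned to 8000 UMIs, with at least 1 UMI of a glutamate transporter gene only, of both classes, of a GABA or glycine gene only, or of neither. The first bars are all named and all unclear neurons, and the rest are the unclear neurons of each cluster; clusters 40, 0 and 18 are mostly glutamate and cluster 6 has the tallest segment for both.

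The leading genes of each cluster, chosen after their values were seen, describe these kinds further. Cluster 40 had 78.9 CPM of Lmx1b and 32.8 CPM of Pou4f1, homeodomain factors of dorsal excitatory neurons, and 797 CPM of Pbx3. Cluster 18 had 76.8 CPM of Lmx1b, 60.5 CPM of Pou4f1 and 121 CPM of Penk, the enkephalin precursor. Clusters 11, 22 and 44 shared Tfap2b, a transcription factor, at 37.1, 38.5 and 49.4 CPM against 2.45 CPM in named neurons. Pax2, a factor of inhibitory interneurons, was at 103, 113 and 132 CPM in these clusters. Cluster 53 carried 323 CPM of Gad2 and 3167 CPM of Grm8, a presynaptic glutamate receptor, and cluster 54 carried 5165 CPM of Il1rapl2 and 5725 CPM of Adarb2. Cluster 4 led with Il1rapl2, Zfhx3 and Foxp2, the last at 110 CPM. Cluster 6 led with Prr5l, St18, Neat1 and Mobp, at 797, 797, 207 and 256 CPM, of which Mobp codes for a myelin protein.

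By nearest profile, ventral sub-types took most of the unclear neurons. Each nucleus, thinned to 2000 UMIs, was set against the mean profile of each sub-type over the 1000 genes that varied most between them, leaving out its own mouse. VI was nearest for 47.6% of 965 nuclei, VE for 17.8%, ME for 10.8%, MI for 10.7%, VM for 8.39% and VC for 2.18%. DE and DI, the most numerous named sub-types, were nearest for 1.35% and 1.24%. In the study's mapping, however, a dorsal excitatory entry, DE_14, was the most frequent specific entry of unclear neurons, at 57 nuclei. Over mice the share nearest to VI was 25.0% to 55.0%. Named nuclei put through the same step received their deposited name in 76.6% of cases, from 47.7% for VM to 91.4% for ME. The step also drew other sub-types to VI, which was nearest for 31.0% of VE, 31.2% of VM and 21.4% of MI nuclei and for 15.5% of all named nuclei, although 493 of 7716 carried that name. The VI share of unclear neurons includes such placements to an extent that was not tested. Unclear neurons were placed with less margin, at a median of 0.0265 in correlation to the next sub-type against 0.0547.

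Summed over nuclei the order was different. The mean correlation over 12 mice was highest with VE at 0.910 ± 0.0205 and VM at 0.907 ± 0.0181, followed by MI at 0.890 ± 0.0161 and VI at 0.887 ± 0.0272 (SD, n = 12). The values of these 4 overlapped in their spread over mice. Within a mouse, VE was the highest in 8 mice and VM in the other 4, so MI and VI were the highest in none. No paired test was run. ME was at 0.849, VC at 0.837, DI at 0.822 and DE at 0.790. By cluster, VI was nearest for 82.1% of the unclear nuclei of cluster 11, 80.0% of cluster 54 and 75.7% of cluster 4, MI for 93.1% of cluster 53, ME for 88.9% of cluster 18, and VE for 71.9% of cluster 0 and 59.2% of cluster 40. In cluster 6 the nuclei were spread, with 38.7% nearest to VI and 24.1% to VE. The named neurons of the same clusters often carried another name, with DE for 205 of 262 in cluster 18, DI for 103 of 130 in cluster 22, VC for 13 of 22 in cluster 54 and VE for 114 of 244 in cluster 11. In cluster 0, VE was the name of 652 of 768, and in cluster 53 MI was the name of 29 of 34.

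**Figure D2:**
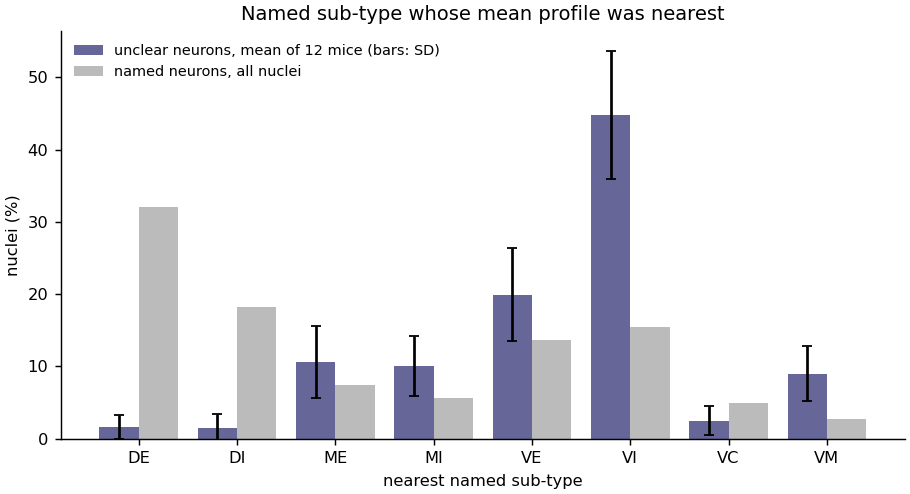
Bars give the percent of nuclei whose thinned profile was nearest to each named sub-type, for unclear neurons (mean and SD over 12 mice) and for named neurons put through the same step (all nuclei together). Unclear neurons peak at VI, while DE and DI take most named neurons.

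The genes that stood highest above named neurons included several of oligodendrocytes, the myelin-forming glia. In all, 4.11% of 11009 genes were higher and 3.37% lower in 12 of 12 mice. The highest 10 were Prr5l at 387 against 88.6 CPM, Neat1, Sec14l5, St18, Gm4593, Daam2, Anln, Aspa, Mobp at 126 against 40.0 CPM, and Mog at 65.5 against 19.5 CPM. Mobp and Mog are myelin proteins, and Aspa breaks down N-acetylaspartate in oligodendrocytes. Of 12 oligodendrocyte markers, 9 were higher in every mouse, with a median ratio of 2.41 and a range of 1.24 to 3.47, and none was at 0. The lowest 10 were Hpse2 at 6.70 against 46.4 CPM, Hmga2, Ebf2, Arhgap6, Ebf1 at 640 against 1703 CPM, Lmo3, Gna14, Myo5b, Stac and Pde11a. Ebf1 and Ebf2 are transcription factors of neuronal maturation. No single member of the astrocyte, OPC (oligodendrocyte precursor) or microglial lists was higher in every mouse, but the summed share of each list was mostly above that of named neurons. It was higher in 12 of 12 mice for microglia, with a median ratio of 1.35, and in 11 of 12 mice for astrocytes (1.48) and for OPCs (1.28). Outside cluster 6 it was higher in 10 mice for microglia, 7 for astrocytes and 11 for OPCs, with median ratios of 1.20, 1.05 and 1.17. Tnr, the OPC marker of highest level, was at 452 CPM in unclear and 402 CPM in named neurons, higher in 7 mice. Over all nuclei the mean OPC share was 0.0457% in unclear neurons. It was higher in ME (0.0661%), VE (0.0616%), VM (0.0577%), VC (0.0508%) and VI (0.0489%), and lower in MI (0.0393%), DE (0.0272%) and DI (0.0216%).

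Most of the nuclei high in oligodendrocyte RNA were in cluster 6. The 12 markers took a mean of 0.0961% of the UMIs of an unclear nucleus and a median of 0.0349%, and 22.05% of nuclei exceeded the 95th percentile of named neurons. In cluster 6 the mean was 0.246% and 68.3% of unclear nuclei exceeded that level. In the 10 other clusters described the mean was between 0.0244% in cluster 40 and 0.0794% in cluster 0. The cluster also held 26 nuclei annotated as oligodendrocytes, and 37 of the 48 unclear nuclei above 60000 UMIs, although its unclear nuclei had a median of 8900 UMIs. Averaged per mouse, the unclear share was above the named share in 12 of 12 mice, by 1.10 to 3.27 times with a median of 2.11. Outside cluster 6, in both groups, it was higher in 6 of 12 mice, with a median ratio of 0.972 and a range of 0.749 to 1.43. The source of this RNA was not tested. Outside cluster 6 the UMI median was above that of named neurons in 12 of 12 mice, by 4268 ± 3057 UMIs (SD, n = 12, exact permutation test, p = 0.000488, chosen after seeing the data).

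**Figure D3:**
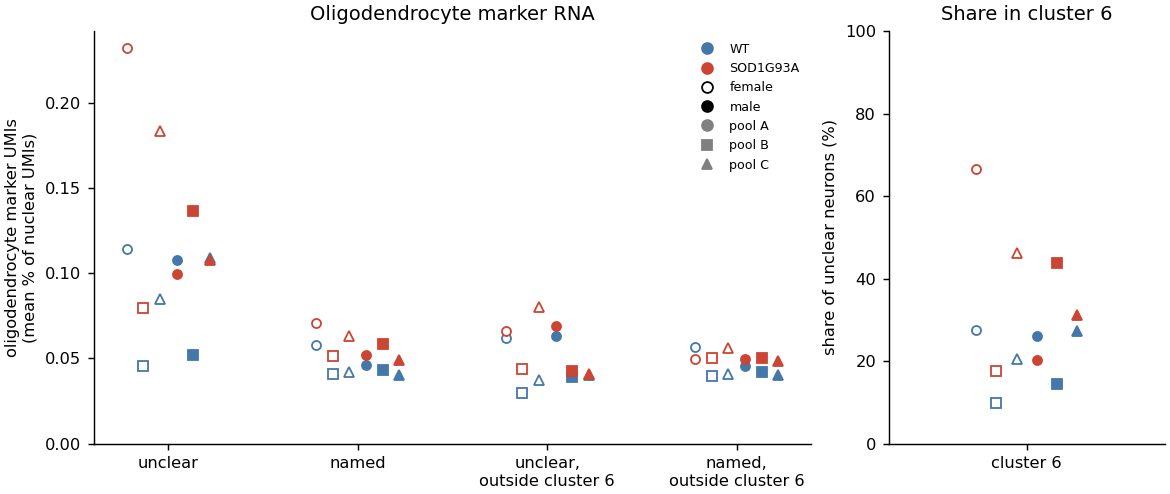
On the left, each point is a mouse and the vertical axis is the mean percent of a nucleus's UMIs in 12 oligodendrocyte markers, in unclear and named neurons, with and without cluster 6; on the right is the percent of unclear neurons in cluster 6. Colour is genotype, open symbols are females and the shape is the pool; unclear neurons stand above named ones until cluster 6 is left out, and the female SOD1G93A mouse of pool A is highest in both panels.

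The share of unclear neurons did not differ by genotype past the test. They were 10.2% to 14.4% of the neurons of a WT mouse, with a median of 11.4%, and 6.67% to 13.5% in SOD1G93A mice, with a median of 11.5%. The groups overlapped, and the share was higher in SOD1G93A in 3 of 6 pairs (edgeR quasi-likelihood test over 9 sub-types, log2 fold change -0.15, FDR = 0.747, against a threshold of 0.05 for shares). Measured against all nuclei of the mouse the log2 fold change was -0.43 (edgeR, FDR = 0.0796), with 3.97% to 6.14% in female SOD1G93A and 7.79% to 9.62% in female WT mice, and 5.04% to 7.68% in male SOD1G93A and 6.14% to 7.08% in male WT mice. For the nuclei outside cluster 6 it was -0.44 (edgeR, FDR = 0.233). The largest shift within them was in cluster 6, which held 20.97% ± 7.41 of the unclear neurons of WT mice and 37.6% ± 18.4 of those of SOD1G93A mice (SD, n = 6), higher in 5 of 6 pairs (exact permutation test over pairs, p = 0.0938, adjusted p = 0.275 over 11 clusters). It was 66.7% in the female SOD1G93A mouse of pool A, whose unclear neurons numbered 27. None of the 11 clusters passed.

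Oligodendrocyte RNA by genotype did not pass either. Its mean share was 0.0454% to 0.114% in WT mice, with a median of 0.0967%, and 0.0795% to 0.232% in SOD1G93A mice, with a median of 0.122%. It was higher in SOD1G93A in 4 of 6 pairs (exact permutation test, p = 0.125, adjusted p = 0.521 over the marker lists). Outside cluster 6 the difference was smaller, at 0.0117 percentage points, with an unadjusted exact permutation p = 0.0312, the smallest that 6 pairs can give. None of the other glial, vascular or motor neuron lists passed. No transmitter class or gene changed by genotype after adjustment. Slc6a5 at 2000 UMIs was seen in 14.8% ± 3.51 of WT and 18.3% ± 2.27 of SOD1G93A nuclei (SD, n = 6), higher in 6 of 6 pairs (exact permutation test, p = 0.0312, adjusted p = 0.281), whereas at 8000 UMIs it was at 45.4% and 41.8%.

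For gene expression, raw UMIs were summed per mouse and fitted with limma with terms for sex, genotype and pool. Of 11109 genes tested, 3 passed at an FDR of 0.1, or 0.027%, and 616 had an unadjusted p under 0.05. With the pool term dropped, none passed (386 at an unadjusted p under 0.05). With single mice left out, the count ran from 1, when the pool A male of the SOD1G93A group was dropped, to 20, when the pool A female of the WT group was dropped. Sod1 rose by 1.56 ± 0.146 on the log2 scale (SE, FDR = 5.44e-05), and was at 1.63 with an FDR of 0.999 in the fit with no pool term. Xpo1, the main exporter of proteins from the nucleus, rose, and Cpq, a secreted carboxypeptidase, fell.

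Xpo1 (chr11:23256041-23298249, mm10, plus strand) was at 64.1 to 90.6 CPM in WT mice, with a median of 70.8, and at 97.5 to 123 CPM in SOD1G93A mice, with a median of 111. The groups did not overlap, which adds no separate evidence because the gene was picked on these same values. By cluster, the pooled WT and SOD1G93A levels were 81.9 and 127 CPM in cluster 6, 81.2 and 112 CPM in cluster 11, 70.4 and 121 CPM in cluster 4, and 70.1 and 70.3 CPM in cluster 40, with no test by cluster. The effect in unclear neurons (log2 fold change 0.58) and that in named neurons (0.57) came from separate fits, and a joint fit of both gave a difference of -0.00086 ± 0.0863 (limma, FDR = 0.999), and of -0.28 (FDR = 0.848) in nuclei low in oligodendrocyte markers. The call was kept in the 965 nuclei with at least 2000 UMIs (0.58, FDR = 0.00899). It was lost in other subsets, with 0.55 (FDR = 0.171) outside cluster 6, 0.49 (FDR = 0.279) at no more than 60000 UMIs and 0.34 (FDR = 0.999) in nuclei low in oligodendrocyte markers and 0.45 (FDR = 1.00) in those low in glial and vascular markers. Those subsets held as few as 9, 23, 5 and 4 nuclei of a mouse, in that order. How far the smaller sums account for the lost call was not tested. With single mice left out the FDR of Xpo1 ran from 0.0108 to 0.106, the highest when the pool A male of the SOD1G93A group was dropped.

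Cpq (chr15:33083129-33594552, mm10, plus strand) was at 36.1 to 61.6 CPM in WT mice, with a median of 45.7, and at 24.8 to 41.7 CPM in SOD1G93A mice, with a median of 27.6. It was lower in SOD1G93A in 6 of 6 pairs although the groups overlapped. The log2 fold change was -0.65 ± 0.121 (limma, FDR = 0.0961), close to the threshold. edgeR and DESeq2 did not call it (FDR = 0.201 and 0.359), and with single mice left out it passed in 3 of 12 fits, its FDR running from 0.0272 to 0.565. The call was also lost outside cluster 6 (-0.86, FDR = 0.153), at no more than 60000 UMIs (-0.68, FDR = 0.279), and in nuclei low in oligodendrocyte markers (-0.59, FDR = 0.999) or in glial and vascular markers (-1.24, FDR = 0.870). In named neurons it was at -0.27, and the difference did not pass (limma, FDR = 0.472).

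The genes with the next smallest p that moved the same way in all 6 pairs did not pass. Those higher were Tpm1, a tropomyosin of the actin cytoskeleton, at 23.6 and 37.8 CPM as medians of WT and SOD1G93A mice, Ormdl3, a regulator of sphingolipid synthesis, at 4.66 and 8.85 CPM, and Gal3st1, which makes the myelin lipid sulfatide, at 28.0 and 39.3 CPM (limma, FDR = 0.134, 0.267 and 0.348). Those lower were Unc5d, a netrin receptor, at 776 and 635 CPM, A830018L16Rik at 388 and 323 CPM, Fstl5, a follistatin-like protein, at 493 and 414 CPM, and Dach1, a transcriptional cofactor, at 314 and 256 CPM (limma, FDR = 0.113, 0.113, 0.124 and 0.134). Unc5d and Fstl5 did not overlap between the genotypes. The share of all genes without overlap is not given here. Because the genes were picked on these same values, a lack of overlap in any of them adds no separate evidence. With no filter on low counts Unc5d, A830018L16Rik, Fstl5 and Dach1 passed (limma, FDR = 0.0274, 0.0479, 0.0583 and 0.0621). At a minimum count of 30 Unc5d, A830018L16Rik and Fstl5 passed (limma, FDR = 0.0935, 0.0967 and 0.0967), with unscaled library sizes Unc5d and A830018L16Rik (limma, FDR = 0.0595 and 0.0695), and outside cluster 6 Unc5d (limma, FDR = 0.0983). Genes that passed in a subset of nuclei and not in all nuclei, chosen after their values were seen, were Kcnmb2 (-0.97) and Stk32b (-2.17) in nuclei low in oligodendrocyte markers, Gm12082 (-1.83) outside cluster 6 and Adarb2 (-0.51) at no more than 60000 UMIs (limma, FDR = 0.0227, 0.0240, 0.0932 and 0.00502). Stk32b, Gm12082 and Adarb2 were among the leading genes of cluster 54, which held 3.89% of the unclear neurons of WT mice and 1.33% of those of SOD1G93A mice, and the part of that share in these calls was not tested.

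A direct test compared the genotype effect in unclear and named neurons of the same mice. It called 4 of 13748 genes at an FDR of 0.1, or 0.0291%. Nell1, a secreted protein with EGF-like domains, was at 392 to 521 CPM in the unclear neurons of WT mice and 313 to 391 CPM in those of SOD1G93A mice, with medians of 442 and 352. Its effect was -0.38 in unclear neurons, which did not pass on its own (limma, FDR = 0.267), and 0.02 in named neurons. The difference was -0.42 ± 0.0662 (limma, FDR = 0.00518). Unc5d differed by -0.34 ± 0.0588, from -0.38 in unclear to -0.05 in named neurons (limma, FDR = 0.0131).

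Htr1f, a serotonin receptor, was at 126 to 196 CPM in WT and 78.9 to 175 CPM in SOD1G93A mice, and differed by -0.48 ± 0.0907 (limma, FDR = 0.0365). Maf, a transcription factor of dorsal interneurons, was at 27.1 to 50.4 CPM in WT and 42.3 to 74.4 CPM in SOD1G93A mice, and differed by 0.67 ± 0.130 (limma, FDR = 0.0496). For both, the groups overlapped, and the direction was opposite in the pooled named neurons, at 0.17 and -0.18. In the unclear neurons alone their effects, -0.29 and 0.48, did not pass (limma, FDR = 0.754 and 0.474). By named sub-type, Htr1f ran from -0.68 ± 0.629 in VM to 0.67 ± 0.723 in VC (SE). Maf was at 2.34 ± 0.549 in VC, and at -0.41 to 0.01 in DE, DI, MI, VE and VI. These 4 genes differed in level between clusters. Nell1 was at 705 CPM in cluster 11 and 27.4 CPM in cluster 53, and Maf at 239 CPM in cluster 53 and 7.05 CPM in cluster 44. The part of cluster make-up in these differences was not tested. With nuclei outside cluster 6, 0 of 13508 genes passed (limma, with 640 at an unadjusted p under 0.05), and the differences were -0.40 for Nell1, -0.41 for Unc5d, -0.37 for Htr1f and 0.48 for Maf. With single mice left out the count ran from 2, when the pool B male of the SOD1G93A group was dropped, to 18, when the pool C female of that group was dropped. Nell1 passed in 12 of 12 such fits and Unc5d in 11, whereas Htr1f passed in 7 and Maf in 4. None of these 4 genes passed at no more than 60000 UMIs or in nuclei low in oligodendrocyte markers. There the Nell1 difference was -0.27 and -0.14 (limma, FDR = 0.875 and 0.956), and the Nell1 effect in unclear neurons was -0.20 and -0.05. For the others the differences were -0.25 and -0.53 for Unc5d (limma, FDR = 0.678 and 0.773), -0.38 and -0.41 for Htr1f (limma, FDR = 0.678 and 0.745) and 0.47 and 0.84 for Maf (limma, FDR = 0.909 and 0.737).

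**Figure D4:**
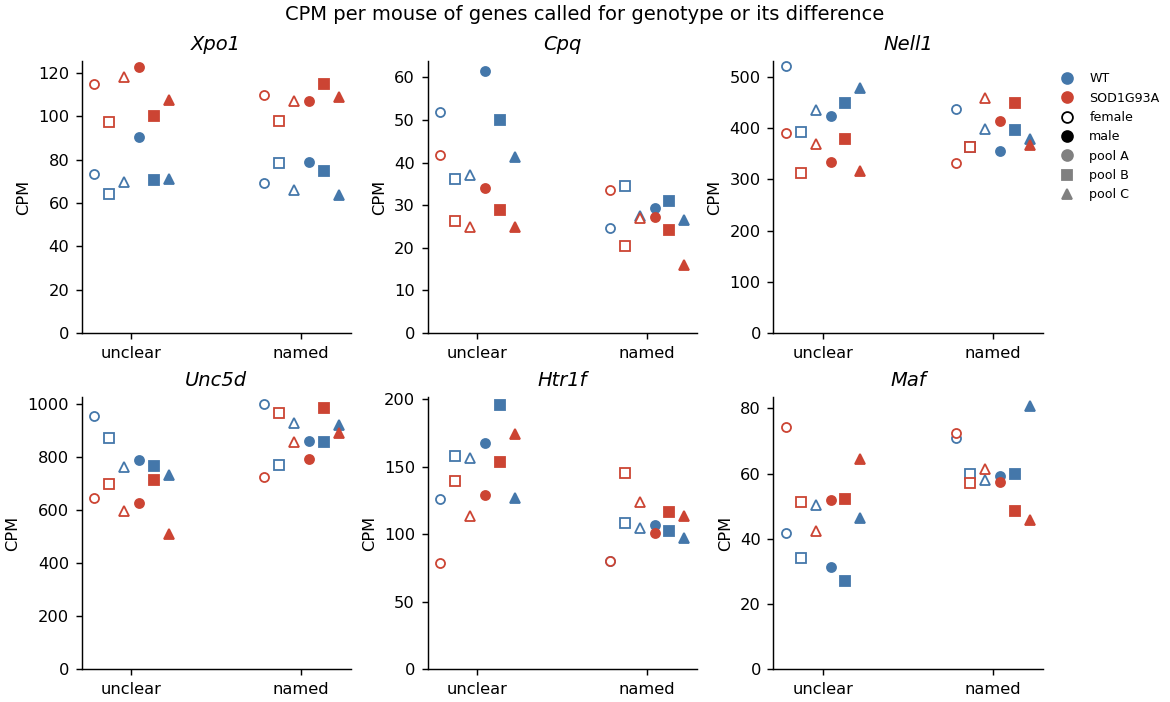
Each panel shows CPM per mouse for a gene called for genotype or for a difference of the genotype effect, in unclear and in named neurons; colour is genotype, open symbols are females and the shape is the pool. Xpo1 separates the genotypes in both sets of neurons, while Nell1 and Unc5d separate them in the unclear neurons and overlap in the named ones. The genes were picked on these same values, so the separation adds no separate evidence.

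Gene groups were described by counts at an unadjusted p under 0.05, which 3.52% of all genes reached as higher and 2.03% as lower in SOD1G93A, with a median log2 fold change of 0.02 over all genes. Of 12 oligodendrocyte markers, 8 were higher by that count and none lower, with a median of 0.42 in unclear and 0.47 in named neurons. Mag, a myelin adhesion protein, had the smallest p, at 0.49 (limma, FDR = 0.348). Outside cluster 6, with fewer nuclei, 0 of 9 oligodendrocyte markers were counted, with a median of 0.31. Of 9 astrocyte markers tested, 5 were lower and 1 higher, with a median of -0.42 in unclear and 0.28 in named neurons. Outside cluster 6, 1 of 5 was lower and 0 higher, with a median of -0.41. These counts rest on UMIs summed per mouse, whereas the mean astrocyte marker share per nucleus was 0.0422% in WT and 0.0498% in SOD1G93A mice, higher in 3 of 6 pairs (exact permutation test over pairs, unadjusted p = 0.469). Aqp4, the astrocyte water channel, was at -0.84 (limma, FDR = 0.318) with medians of 14.5 and 9.80 CPM, and Slc4a4, a bicarbonate transporter with the highest level, was at -0.37. Of 6 microglial markers 1 was higher, Ptprc at 1.14, a leukocyte phosphatase with medians of 2.07 and 5.00 CPM, while P2ry12, the highest, was at -0.09. Of 4 OPC markers none was counted, with Olig1 at 0.50 and Tnr at -0.03. A single Schwann marker, Ncmap at -0.16, and a single meningeal marker, Ptgds at 0.12, could be tested, and no endothelial or ependymal marker could.

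No gene of the neuronal groups passed the test. None of 7 neuronal markers was counted, with a median of -0.01, Rbfox3 at -0.04 and Grin1 at 0.01. Among transmitter genes none was counted either. Slc17a6 was at 0.06, Gad1 at 0.07, Gad2 at -0.14, Slc32a1 at -0.15 and Slc6a5 at 0.01, while Slc5a7 at 0.52, Slc18a2 at 0.45 and Ddc at -0.71 were low in counts. Of the 2 motor neuron markers tested none was counted, with Slit3 at -0.48. Of 16 ionotropic glutamate receptor genes 2 were lower, with Grik2, a kainate receptor, at -0.17. Of 6 metabotropic ones 1 was higher, Grm7 at 0.15. Of 15 GABA-A and glycine receptor genes 1 was lower, Glra2 at -0.36.

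Of 7 dorsal horn peptide genes 2 were higher, with a median of 0.64 from low levels. Sst, somatostatin, had medians of 9.33 and 15.9 CPM and a log2 fold change of 0.85 (limma, FDR = 0.353). Reln, reelin, of the highest level, was at 0.28 and not counted. Of 23 spinal transcription factors 3 were higher, among them Maf at 0.48 with the smallest p and Lmx1b at 0.65, and Rora, of the highest level, was at 0.00.

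Among stress and transport genes, Xpo1 and Sod1 alone passed the test. Of 27 nuclear transport genes 2 were higher and 1 lower, with a median of 0.01, and Xpo7, a relative of Xpo1 and the highest, was at 0.01. Of 15 antioxidant genes 1 was higher, Sod1 itself, and the median was -0.06. Of 13 heat shock genes 2 were higher, Hsp90aa1 at 0.41 in 6 of 6 pairs (limma, FDR = 0.422), with Dnajb6 at 0.04. Of 10 unfolded protein response genes 2 were higher, Atf4 at 0.65 and Ern1 at 0.28, while Atf6, of the highest level, was at -0.07 and not counted. Of 4 neurofilament genes 2 were higher, Nefh at 0.50 and Nefm at 0.36, both in 6 of 6 pairs (limma, FDR = 0.414 and 0.461). Nr4a1, of 2 immediate early genes tested, was at 0.47. None of 5 axon growth genes was counted, with Stmn2 at 0.12, and none of 24 respiratory chain genes, with Ndufa4 at 0.28 and Ndufs4 at -0.08.

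The interaction of sex and genotype passed for some genes in all unclear nuclei, but for none outside cluster 6. Outside the X and Y chromosomes, 0 of 10733 genes, or 0%, differed between the sexes (limma, with 540 at an unadjusted p under 0.05). The interaction of sex and genotype called 51 of 11109 genes, or 0.459%, of which 47 had the more positive change in females. In oligodendrocyte nuclei, 39 of the 51 (76.5%) were above 4 times their level in unclear neurons, as were 3.56% of all genes tested. The genes named for it were chosen after their values were seen. Mbp, a myelin protein, was at 0.91 in females and -0.24 in males (limma, FDR = 0.0223), Cldn11, the tight junction protein of myelin, at 1.27 and -0.21 (FDR = 0.0570), Mag at 1.07 and -0.09 (FDR = 0.0574), Aspa at 1.05 and -0.41 (FDR = 0.0615) and Neat1, a nuclear non-coding RNA, at 1.53 and -0.26 (FDR = 0.0425). Over the 12 oligodendrocyte markers the median was 0.91 in females, with 12 positive, and -0.08 in males, with 3 positive.

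The share of cluster 6 was higher in SOD1G93A in 3 of 3 female pairs and in 2 of 3 male pairs. It held 66.7%, 17.6% and 46.2% of the unclear neurons of the female SOD1G93A mice of pools A, B and C, and 27.5%, 9.92% and 20.6% of those of the female WT mice. In males the SOD1G93A values were 20.2%, 43.8% and 31.2%, and the WT values 26.2%, 14.4% and 27.3%. With nuclei outside cluster 6 the interaction called 0 of 8490 genes (limma, with 352 at an unadjusted p under 0.05), with nuclei of no more than 60000 UMIs it called 1, and in named neurons it called 0 of 15250. Leaving out single mice moved the count between 0 (with 746 at an unadjusted p under 0.05), when the pool A male of the SOD1G93A group was dropped, and 167, when the pool B female of the WT group was dropped.

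**Figure D5:**
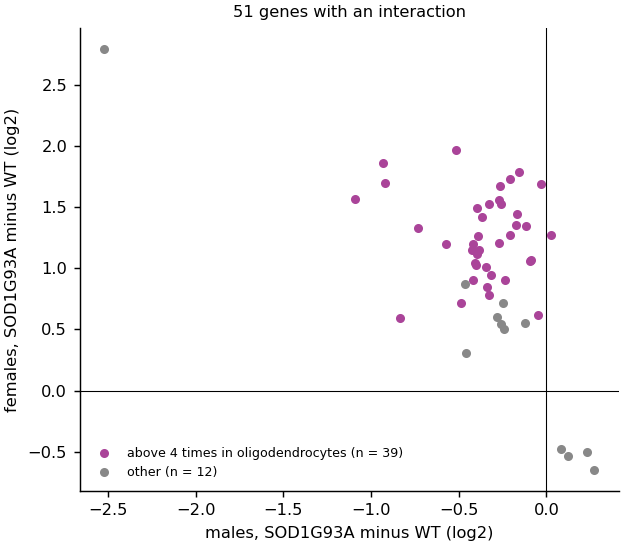
Each point is 1 of the 51 genes with an interaction of sex and genotype, with the log2 fold change of SOD1G93A against WT in males on the horizontal axis and in females on the vertical axis. Purple genes were above 4 times the unclear level in oligodendrocyte nuclei (39 genes), and nearly all of them lie above 0 in females and below 0 in males.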

How the data were processed

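Nuclei of 3 pools were sequenced as droplet libraries. Per the labels and the study's methods, the authors made the deposited raw UMI counts with Cell Ranger 3.1 (STAR 2.5.1b, mm10), assigned nuclei to mice by hashtag and removed nuclei tagged for several mice; no doublet caller was run here. The nuclei table deposited by the authors also held the mitochondrial percent, the hashtag margin score, a reference mapping score as a fraction, clusters and sub-types. The sctransform table was left out, as it holds no counts to add up. Genotype, sex and pool of each mouse came from the deposited mouse table. Gene positions came from GENCODE M21 (mm10), which held 30451 of 31040 symbols. Counting strand is not given in the sources used here, so overlapping genes cannot be told apart.

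UMI counts were summed per mouse and fitted with limma 3.58.1 (voom, minimum count 10, TMMwsp factors, robust moderation, FDR under 0.1, terms for group and pool), with edgeR 4.0.16 and DESeq2 1.42.0 as alternatives in R 4.3.3. Shares of nuclei were tested with edgeR, and single values per mouse with exact sign-flip permutation tests over mice or over 6 pairs of the same sex and pool. Thinning drew each nucleus to 2000 UMIs, leaving out 51 unclear neurons and 41 named ones, or to 8000 UMIs, leaving out 224 and 1676. On simulated data, limma recovered 95% of 2-fold and 100% of 4-fold changes among 10826 genes of the genotype comparison, and 12.2% of its calls were unchanged genes. The changes were planted in 200 genes with a mean of at least 10 CPM, and no pool effect was simulated. These rates therefore do not cover smaller changes, lower genes or differences between pools.

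Mice of a pool deviated together, with mean correlations of their deviations of 0.102, 0.150 and 0.172 within pools A, B and C and -0.150 to -0.194 to other pools. The deposited tables name the pool as a batch, so the models had a term for it, except the alternative fits named as without it. The genes named were those past the threshold for genotype, sex outside X and Y, or the difference of effects; the 5 higher and 5 lower of smallest p that moved alike in 6 pairs; the transmitter genes and neuronal markers; the members of smallest p and highest level of each other list; and the 10 highest and 10 lowest against named neurons, of at least 20 CPM and in the same direction in 12 mice. Some genes that this rule names are not reported here. Members, lists and tests were chosen with earlier results of these data known. Intervals and limits cover counting error only, and the p-values measure the spread between mice.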

Additional observations from a re-analysis of the deposited data

Results flagged for a closer look

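Of 92 groups of 6 mice tested for a sample far from the rest, 8 held one, and chance gives about 1 in 20. In unclear neurons of WT mice, the female of pool A stood apart in the mean share of OPC markers (0.0551% of UMIs, the others at 0.0393% to 0.0447%) and of meningeal markers (0.0279%, the others at 0.00381% to 0.00849%). The male WT mouse of pool C stood apart in endothelial and mural markers (0.0164%, the others at 0.00128% to 0.00673%) and ependymal markers (0.00736%, the others at 0.000675% to 0.00161%). The male WT mouse of pool A was high in Xpo1, at 90.6 CPM with the others at 64.1 to 73.3. Among SOD1G93A mice, the male of pool A was high in Sod1, at 234 CPM with the others at 60.8 to 105, and in Slc32a1, at 42.3 CPM with the others at 10.2 to 19.3. The female SOD1G93A mouse of pool A was high in Slc5a7, at 22.5 CPM with the others at 2.92 to 8.69.

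In all unclear nuclei, the genotype effect differed between the sexes for 51 genes by a test of the interaction in limma. The count was 0 outside cluster 6, and ran from 0 to 167 with a mouse left out. The interaction was 1.14 on the log2 scale for Mbp, 1.16 for Mag, 1.48 for Cldn11, 1.45 for Aspa, 1.79 for Neat1 and 5.31 for Pkd2l1. The Pkd2l1 value rests on few nuclei. At least 10 UMIs of Pkd2l1 and Pkd1l2 together were held by 10 unclear neurons, all of cluster 6 and from 4 mice.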

How the results depend on the processing

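Depth limits these results: 1016 nuclei give a mouse as few as 27, so low genes were tested in few UMIs. Subsets were smaller, with as few as 9 nuclei of a mouse outside cluster 6 and 23 at no more than 60000 UMIs. Nuclei low in oligodendrocyte markers were as few as 5 in a mouse, and those low in glial and vascular markers as few as 4. How far smaller sums account for calls lost in subsets was not tested. Settings with nuclei outside cluster 6, below an upper UMI limit, or thinned to 8000 UMIs were chosen after seeing the data. The genotype effect called 0 genes without the replicate block (no pool term; 386 at an unadjusted p under 0.05), 12 with no filter, 8 at a minimum count of 30, 6 with unscaled library sizes, 1 in nuclei low in glial and vascular markers, and 1 to 20 with a mouse left out. Without the pool term the count of 0 stands beside an FDR of 0.999 for Sod1; the cause was not tested. The interaction called 0 genes without the replicate block (346 at an unadjusted p under 0.05), 12 with no filter, 2 in nuclei low in oligodendrocyte markers, 0 in those low in glial and vascular markers (314 at an unadjusted p under 0.05), 0 outside cluster 6, 1 at no more than 60000 UMIs, and 0 to 167 with a mouse left out. The difference from named neurons called 0 genes outside cluster 6, 1 at no more than 60000 UMIs, and 2 to 18 with a mouse left out; for Xpo1 this difference was -0.0436 to 0.0242 with a mouse left out and -0.28 to -0.01 in the other settings. The log10 UMI difference was 0.0292 (exact permutation test, p = 0.271). The mitochondrial difference was -0.0188 to 0.00284 percentage points with a mouse left out. Glutamate genes were seen in 14.6% of unclear neurons at 4000 UMIs, 24.0% at 8000, 35.0% unthinned and 20.8% at 2 or more UMIs unthinned; GABA and glycine genes in 49.5%, 67.7%, 71.9% and 53.5%; and both in 3.03%, 8.71%, 20.1% and 6.69%. The ratio of mean oligodendrocyte share to named neurons was 1.98, and 1.03 without cluster 6. By genotype the oligodendrocyte share outside cluster 6 was higher by 0.0117 percentage points (exact permutation test over pairs, unadjusted p = 0.0312, the smallest that 6 pairs can give). Marker shares by genotype that turned direction, none past a test, were astrocyte (-0.00916 on summed UMIs and -0.00552 outside cluster 6), microglia (-9.28e-05 outside cluster 6), endothelial and mural (0.000191 on summed UMIs), Schwann (3.28e-05 and 5.12e-05), meningeal (1.14e-05 on summed UMIs) and ependymal (0.000152 outside cluster 6). The share of unclear neurons by genotype kept its direction and stayed above its FDR threshold of 0.05 in every setting, from -0.23 to -0.05 with a mouse left out and from -0.44 (outside cluster 6, FDR = 0.233) to -0.10 otherwise, the lowest FDR being 0.0796 against all nuclei of the mouse, and nearest sub-type shares moved by less than their spread over mice.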

Other observations

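Pkd2l1 and Pkd1l2, which code for channel proteins typical of the neurons that contact cerebrospinal fluid at the central canal, were summed per nucleus after the interaction had pointed to Pkd2l1. At least 10 UMIs were held by 10 unclear neurons, all of cluster 6 and from 4 mice, and by 1 of 7757 named neurons. At least 5 UMIs were held by 13 unclear neurons, again all of cluster 6, and by 2 named ones. In the unclear neurons of cluster 6 the levels were 28.5 CPM of Pkd2l1 and 37.9 CPM of Pkd1l2.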
